A study of Mus musculus with 6 samples.

Results

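The tumour necrosis factor (TNF) superfamily was examined in macrophages sorted from the lamina propria of the colon. Its genes were taken by symbol: those numbered Tnfsf (ligands) or Tnfrsf (receptors), together with Tnf, Lta, Ltb, Ltbr, Cd40, Cd40lg, Fas, Fasl, Cd27, Cd70, Eda2r and Ngfr. This gave 43 of the 25124 genes in the deposited table, 17 ligands and 26 receptors. RNA was sequenced from 3 libraries of transgenic mice (TG) whose macrophages carry extra E4BP4, the bZIP transcription factor made from the gene Nfil3, and from 3 libraries of wild type mice (WT). The genotype labels of TG replicates 2 and 3 end in other digits than E4BP4, which all 3 titles name, and the titles were followed. All mice were C57BL/6 and 8 weeks old. Mice of both groups had been given dextran sulfate sodium, which injures the colonic epithelium, at 2.0% in drinking water for 7 days, and were killed on day 14 after 7 days of plain water, so no group without colitis was compared. The labels do not name the promoter that drives the transgene, nor do they say if each library was a different mouse, so the p-values reflect spread among these libraries that may be technical only.

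Most TNF superfamily ligands are trimers made on the cell surface, and several are cut off by proteases and act at a distance. Their receptors recruit TRAF adaptors or, where they carry a death domain, TRADD or FADD, and through these switch on NF-kappaB, MAP kinases or cell death. In the colon TNF is the target of antibodies used in inflammatory bowel disease, lymphotoxin beta receptor signalling builds lymphoid tissue, and BAFF and APRIL support B cells and IgA-secreting plasma cells.

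The libraries held 17.25 to 18.90 M (1e6) reads, and 13.97 to 15.06 M of them lay in genes. Nfil3, the gene of E4BP4, had 133, 134 and 141 TPM (a transcript level scaled for length and depth) in TG libraries, against 117, 119.9 and 119 TPM in WT libraries. It was 1.14-fold higher in TG (log2 fold change 0.19 ± 0.029 (SE), n = 3 each, limma adjusted p = 0.00261). Since 8.71% of all tested genes were also called higher, a rise this small cannot by itself verify the labels. If reads of the transgene were counted as Nfil3 was not tested. Macrophage markers summed to 19496 to 19596 TPM in TG libraries and 20095 to 20328 TPM in WT libraries, and of the 12 markers 4 rose and 5 fell. Markers of other cell types were also present. Neutrophil markers summed to 426 to 480 TPM in TG and 1013 to 1041 TPM in WT, and epithelial markers to 591 to 597 TPM in TG and 1065 to 1069 TPM in WT.

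The promoter windows below are those of the ligand pair BAFF (Tnfsf13b) and APRIL (Tnfsf13), which moved in opposite directions, and of the receptors Tnfrsf9 and Tnfrsf25, each of which has a window with an NF-kappaB consensus match. Each is the 250 bases before the transcription start, from the RefSeq promoter table for GRCm38.p6 (the mm10 assembly), written 5′ to 3′ on the strand of the gene, with the match in capitals. The Tnfrsf9 window lies at chr4:150927749-150927998 on the plus strand, and the Tnfrsf25 window at chr4:152116093-152116342 on the plus strand. The Tnfsf13b window lies at chr8:10006383-10006632 on the plus strand, and the Tnfsf13 window at chr11:69685555-69685804 on the minus strand.
Tnfrsf9: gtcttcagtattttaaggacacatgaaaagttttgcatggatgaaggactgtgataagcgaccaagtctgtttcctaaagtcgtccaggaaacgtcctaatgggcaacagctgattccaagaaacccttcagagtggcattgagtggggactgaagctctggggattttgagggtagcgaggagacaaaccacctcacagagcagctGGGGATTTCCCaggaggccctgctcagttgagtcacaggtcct
Tnfrsf25: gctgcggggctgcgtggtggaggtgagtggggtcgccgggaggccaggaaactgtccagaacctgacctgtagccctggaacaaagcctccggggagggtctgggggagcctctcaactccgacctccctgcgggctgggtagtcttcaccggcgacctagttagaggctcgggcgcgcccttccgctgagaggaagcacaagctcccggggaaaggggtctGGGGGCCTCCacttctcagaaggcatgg
Tnfsf13b: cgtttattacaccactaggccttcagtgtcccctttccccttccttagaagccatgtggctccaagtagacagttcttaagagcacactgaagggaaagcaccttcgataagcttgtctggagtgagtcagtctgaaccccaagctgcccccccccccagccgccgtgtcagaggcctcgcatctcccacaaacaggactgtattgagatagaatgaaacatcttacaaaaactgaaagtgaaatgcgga
Tnfsf13: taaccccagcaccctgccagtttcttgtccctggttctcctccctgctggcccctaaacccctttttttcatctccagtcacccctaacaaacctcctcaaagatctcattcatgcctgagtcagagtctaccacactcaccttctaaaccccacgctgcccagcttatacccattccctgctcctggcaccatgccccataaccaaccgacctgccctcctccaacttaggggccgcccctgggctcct

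The table held 37 windows for 33 of the 43 genes, some with more than one start. The E4BP4 motif, TTANGTAA or its reverse complement TTACNTAA, was present in 0 of these 37 windows, against 2.06% of all 32851 windows of the same length. The NF-kappaB consensus, searched on both strands, was present in 4 of the 37 (10.8%), against 7.25% of all windows. The 4 windows belong to Tnfrsf8, Tnfrsf9, Tnfrsf25 and Ltb. In Tnfrsf9 the match begins 43 bases before the start and is a single stretch that fits the consensus at 2 overlapping positions. In Tnfrsf25 it begins 28 bases before the start. Both genes have a second window, upstream of the one shown (chr4:150919905-150920154 for Tnfrsf9 and chr4:152115684-152115933 for Tnfrsf25), which holds no match. A match is a description of the letters, and the absence of one says only that they are not in this window.

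At the level of the whole family, members moved in both directions. Of the 43 genes, 32 reached an average of 1 TPM in either group and were tested. The other 11 averaged between 0 and 0.984 TPM. Against WT, 5 rose in TG (Tnfsf13b, Tnfrsf25, Tnfsf9, Fasl and Tnfrsf14) and 7 fell (Tnfrsf9, Tnfsf13, Tnfrsf12a, Tnfrsf4, Tnfsf14, Ltbr and Tnfrsf1a), at a limma p adjusted over all 12633 tested genes below 0.05. Among all tested genes 8.71% rose and 13.2% fell, or 21.9% in either direction. Of the 32 tested members 15.6% rose and 21.9% fell, or 37.5% in either direction. Fasl, Cd40lg and Tnfsf11 passed the filter only through their TG mean, so that a difference of theirs is partly built into the filter. Of the other 29 members, with at least 1 TPM in both groups, 4 rose and 7 fell (13.8% and 24.1%). The median log2 fold change was 0.02 over the members and -0.01 over all tested genes. Of the 13 tested ligands 3 rose and 2 fell, and of the 19 tested receptors 2 rose and 5 fell. Fasl, Cd40lg and Tnfsf11 are all ligands, and Fasl is 1 of the 3 that rose. A difference between ligands and receptors is thus partly built into the filter. All TG libraries lay above all WT libraries for 6 of the tested members and below them for 9, where 17.1% of all tested genes lay above and 22.3% below. Of the 29 members with at least 1 TPM in both groups, 4 lay above and 9 below.

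**Figure D1:**
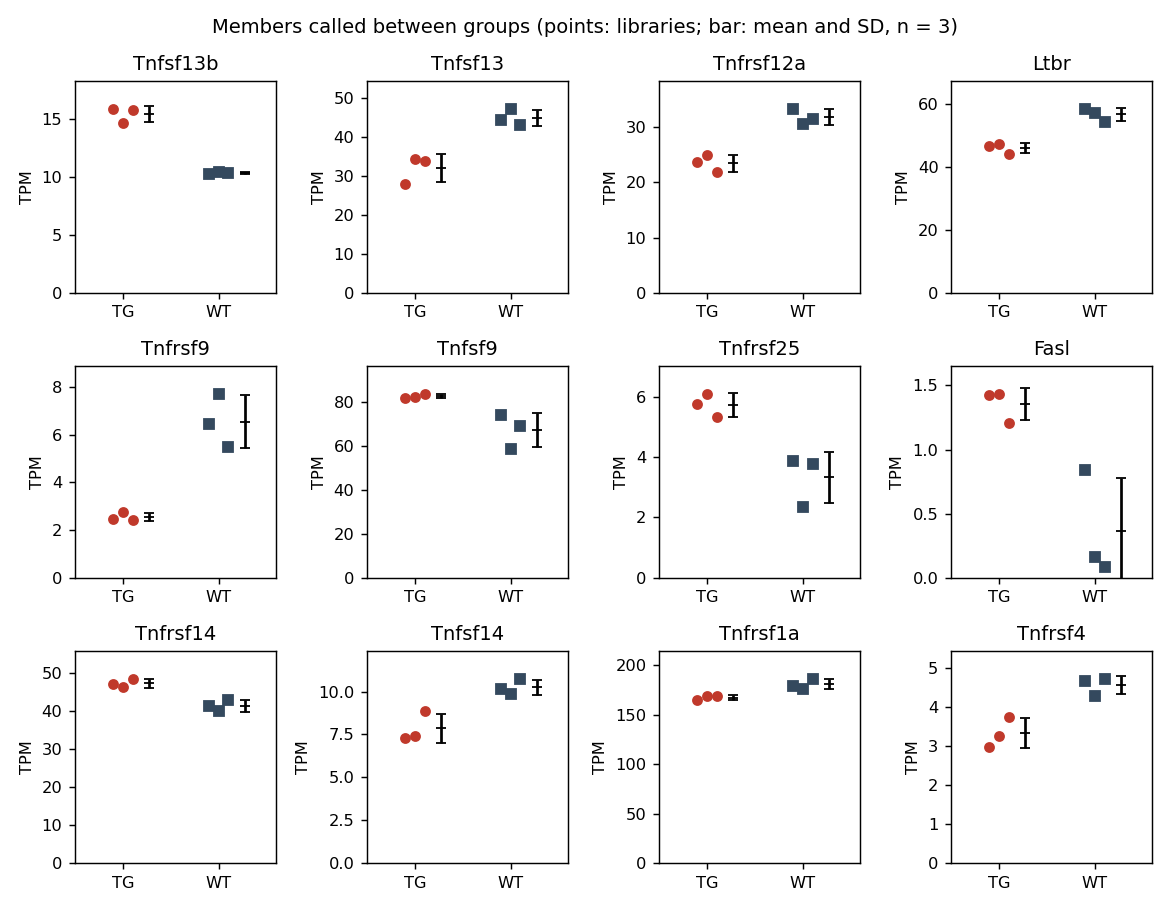
Members of the TNF superfamily called between TG and WT libraries, with TPM on the vertical axis for each library (points), the mean (line) and the SD (bars, n = 3 each; the lower bar of Fasl in WT is cut at 0). The panels were chosen by adjusted p on these same values, so the lack of overlap in all 12 is no further support. Groups did not overlap in 39.3% of all tested genes. Tnfrsf9 is 2.58-fold lower and Tnfrsf25 1.72-fold higher in TG. Fasl passed the filter only through TG and its WT libraries are scattered.

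The calls differed in how far they depended on single libraries. Ltbr, Tnfsf13, Tnfsf13b, Tnfrsf12a and Tnfrsf9 kept their direction and stayed below an adjusted p of 0.05 under all 12 alternative settings, which include leaving out each library. The other 7 lost the call under at least 1 setting. Scaling the libraries to their upper quartile called 6 members higher and 6 lower, where over all tested genes it called 1425 higher and 1315 lower, against 1100 higher and 1666 lower without it.

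TNF itself, the founding ligand and a main product of activated macrophages, was among the most abundant members and did not pass the test. Tnf (chr17:35199367-35202007) had 129, 132 and 133 TPM in TG libraries, against 129, 125 and 126 TPM in WT libraries. The groups overlapped only in that TG replicate 1 lay just below WT replicate 1. The log2 fold change was 0.05 with a 95% confidence interval of -0.01 to 0.11 (limma adjusted p = 0.197), and with upper-quartile scaling it was 0.09 (limma adjusted p = 0.0435).

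Of the TNF receptors, one fell by a small amount and the other did not pass the test. Tnfrsf1a (chr6:125349723-125362483), the death-domain receptor TNFR1 found on most cells, had the highest level of any member. It had 164, 168 and 169 TPM in TG libraries, against 180, 176 and 186 TPM in WT libraries. Every TG library was below every WT library, and the log2 fold change was -0.11 ± 0.027 (SE, n = 3 each, limma adjusted p = 0.0222). The call was lost under upper-quartile scaling (limma adjusted p = 0.0855) and without TG replicate 1 (0.0659), TG replicate 2 (0.0536), TG replicate 3 (0.0542) or WT replicate 3 (0.0647). Tnfrsf1b (chr4:145212368-145246870), TNFR2, which is found mainly on immune and endothelial cells and has no death domain, had 115, 109.8 and 113 TPM in TG libraries, against 112, 114 and 109.7 TPM in WT libraries. The groups overlapped, with a log2 fold change of 0.01 and a 95% confidence interval of -0.06 to 0.08 (limma adjusted p = 0.859). The ratio of Tnfrsf1a to Tnfrsf1b was 1.44, 1.53 and 1.49 in TG libraries and 1.61, 1.54 and 1.70 in WT libraries.

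The lymphotoxin branch held a receptor and a ligand that fell and a receptor that rose. Ltbr (chr6:125306571-125313885), the lymphotoxin beta receptor, which signals to the noncanonical NF-kappaB pathway in myeloid and stromal cells, had 46.7, 47.1 and 44.1 TPM in TG libraries. In WT libraries it had 58.5, 57.1 and 54.4 TPM. The groups were well apart, and Ltbr fell 1.23-fold, with a log2 fold change of -0.30 ± 0.042 (SE, n = 3 each, limma adjusted p = 0.00215). Over the 12 alternatives its log2 fold change was between -0.32 and -0.26. In a bulk library fewer cells of a type and less RNA per cell cannot be told apart. Fibroblasts also express Ltbr, and fibroblast and smooth muscle markers summed to 138 to 141 TPM in TG and 181 to 184 TPM in WT (5 of 12 fell, 0 rose), and 9 of the 12 epithelial markers fell. Their part in the result was not tested.

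Tnfsf14 (LIGHT, chr17:57189474-57194181), a ligand of both Ltbr and Tnfrsf14, had 7.32, 7.42 and 8.85 TPM in TG libraries, against 10.1, 9.86 and 10.7 TPM in WT libraries. Its groups did not overlap and its log2 fold change was -0.35 ± 0.084 (SE, n = 3 each, limma adjusted p = 0.0219), a call lost without TG replicate 1 (0.0695), TG replicate 2 (0.0756), WT replicate 1 (0.0544) or WT replicate 3 (0.0697). Tnfrsf14 (HVEM, chr4:154922210-154928077), which binds LIGHT and the inhibitory receptor BTLA, had 47.1, 46.3 and 48.5 TPM in TG libraries, against 41.3, 39.9 and 43.0 TPM in WT libraries. Every TG library was above every WT library, and the log2 fold change was 0.19 ± 0.041 (SE, n = 3 each, limma adjusted p = 0.0138). That call was lost in limma-voom on recovered reads (0.0539) and without TG replicate 3 (0.0553). The ratio of Tnfrsf14 to Tnfsf14, which restates these values, was 6.44, 6.24 and 5.48 in TG libraries and 4.07, 4.05 and 4.01 in WT libraries. Of the lymphotoxin genes, Ltb was not called (9.68 and 10.9 TPM on average in TG and WT, limma adjusted p = 0.469), and Lta averaged under 1 TPM in both groups.

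The ligands BAFF and APRIL moved in opposite directions. Tnfsf13b (BAFF, chr8:10006633-10035999), a survival factor for B cells made by myeloid cells, had 15.9, 14.7 and 15.8 TPM in TG libraries, against 10.3, 10.4 and 10.3 TPM in WT libraries. The lowest TG library lay far above the highest WT library. It rose 1.497-fold, a log2 fold change of 0.54 ± 0.056 (SE, n = 3 each, limma adjusted p = 0.000436), and stayed between 0.52 and 0.59 over the 12 alternatives. Dendritic cells also make BAFF, and dendritic cell markers summed to 321 to 330 TPM in TG and 257 to 269 TPM in WT (6 of 11 tested rose, 1 fell). A single marker, which averaged 205 TPM in a group, made up much of these sums. The part of dendritic cells in the result was not tested.

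Tnfsf13 (APRIL, chr11:69682577-69685554), which supports plasma cells and IgA class switching, had 28.0, 34.4 and 33.9 TPM in TG libraries, against 44.3, 47.3 and 43.1 TPM in WT libraries. All TG libraries were lower, TG replicate 1 most so. It fell 1.40-fold, with a log2 fold change of -0.48 ± 0.079 (SE, n = 3 each, limma adjusted p = 0.00424) and a range of -0.53 to -0.38 over the alternatives. The exons of Tnfsf13 share 983 bases with Tnfsfm13, a read-through gene on the same strand that joins Tnfsf12 and Tnfsf13, and 221 bases with the antisense gene Tnfsf13os. Tnfsfm13, named after its values were seen, also fell, with 40.2, 44.6 and 45.3 TPM in TG libraries, against 53.3, 52.7 and 51.5 TPM in WT libraries (log2 fold change -0.27 ± 0.050, n = 3 each, limma adjusted p = 0.00674). Which of these overlapping genes the shared reads came from is uncertain. The ratio of Tnfsf13b to Tnfsf13 was 0.569, 0.427 and 0.466 in TG libraries and 0.231, 0.220 and 0.239 in WT libraries. That these ratios did not overlap follows from the opposite differences already given and is no further support.

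None of the BAFF and APRIL receptors passed the test. Tnfrsf13b (TACI), read from a noncoding transcript of that gene, averaged 24.0 TPM in TG and 23.6 TPM in WT (limma adjusted p = 0.813). Tnfrsf13c (the BAFF receptor of B cells) averaged 1.41 TPM in TG and 1.27 TPM in WT. Tnfrsf17 (BCMA, of plasma cells), named after its values were seen, had 3.49, 1.61 and 2.80 TPM in TG libraries, against 2.32, 0.872 and 0.790 TPM in WT libraries. Its groups overlapped and its limma adjusted p was 0.136, but it was 0.0484 in limma-voom, 0.0480 with the replicate number as a block and 0.0359 without WT replicate 1. B and plasma cell markers summed to 289 to 304 TPM in TG and 270 to 284 TPM in WT, where 1 of 11 rose (Jchain, 204 TPM in TG and 165 TPM in WT) and 1 fell (Sdc1, 10.9 TPM in TG and 29.1 TPM in WT). Of the 11 log2 fold changes 8 were negative, with a median of -0.13. The part of these markers was not tested.

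The receptor of TWEAK fell and its ligand was not called. Tnfrsf12a (Fn14, chr17:23675445-23677449), a receptor induced in injured tissue, had 23.7, 24.9 and 21.8 TPM in TG libraries, against 33.4, 30.5 and 31.6 TPM in WT libraries. The groups were separate, and it fell 1.36-fold, with a log2 fold change of -0.42 ± 0.059 (SE, n = 3 each, limma adjusted p = 0.00194) and a range of -0.47 to -0.38 over the 12 alternatives. Fn14 is also made by epithelial and stromal cells, for which 9 of 12 and 5 of 12 markers fell, and their part in the result was not tested. Tnfsf12 (TWEAK, chr11:69686240-69696098), whose exons share 731 bases with Tnfsfm13, had 47.4, 49.9 and 46.5 TPM in TG libraries, against 54.3, 48.0 and 48.8 TPM in WT libraries. These groups overlapped, and the log2 fold change was -0.07 with a 95% confidence interval of -0.19 to 0.06 (limma adjusted p = 0.410).

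**Figure D2:**
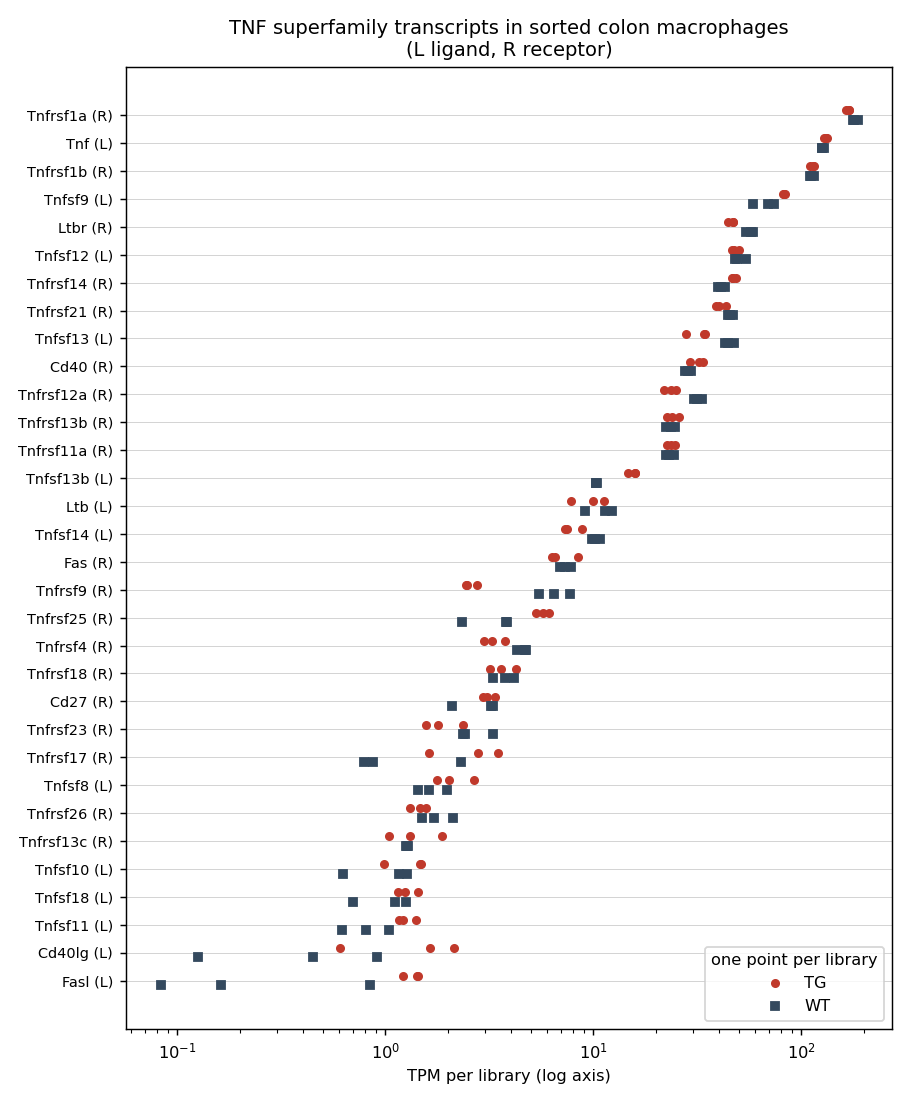
Level of each of the 32 tested TNF superfamily members in each TG and WT library, in TPM on a log axis, ordered by mean level. Tnfrsf1a, Tnf and Tnfrsf1b lie above 100 TPM in every library and 13 members exceed 20 TPM in a group.

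Among the co-stimulatory members, the 4-1BB pair moved in opposite directions. Tnfrsf9 (4-1BB, chr4:150927999-150946102), a co-stimulatory receptor best known on activated T cells and also found on myeloid cells, had 2.46, 2.74 and 2.43 TPM in TG libraries. In WT libraries it had 6.45, 7.72 and 5.49 TPM. The highest TG library had less than the lowest WT library by a wide margin, on 207 recovered reads in TG and 520 in WT. It fell 2.58-fold, the largest decrease among the called members, with a log2 fold change of -1.08 ± 0.12 (SE, n = 3 each, limma adjusted p = 0.000624) and a range of -1.35 to -0.97 over the 12 alternatives.

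Tnfsf9 (4-1BB ligand, chr17:57105385-57107757), which antigen-presenting cells display, had 81.7, 82.3 and 83.6 TPM in TG libraries, against 74.2, 58.6 and 68.8 TPM in WT libraries. TG libraries were close together and above the more scattered WT libraries. It rose 1.23-fold (log2 fold change 0.30 ± 0.076, SE, n = 3 each, limma adjusted p = 0.0264). The call was lost with no filter on low values (0.0598) and without TG replicate 1 (0.0626), TG replicate 2 (0.0742), TG replicate 3 (0.0785) or WT replicate 3 (0.0513). Dendritic cells also carry this ligand, and the part of their markers, given above with BAFF, was not tested. The exons of Tnfsf9 share 192 bases with Gm11110, a noncoding gene on the opposite strand, and without strand the source of those reads is uncertain. The ratio of Tnfsf9 to Tnfrsf9, which restates the values of both genes, was 33.2, 30.01 and 34.4 in TG libraries and 11.5, 7.58 and 12.5 in WT libraries.

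The receptors Tnfrsf25 and Tnfrsf4 were low and moved apart. Tnfrsf25 (DR3, chr4:152116343-152120119), the receptor of TL1A on T cells and innate lymphoid cells, had 5.75, 6.09 and 5.31 TPM in TG libraries, against 3.86, 2.34 and 3.78 TPM in WT libraries. All TG libraries were higher, with a ratio of 1.72 and a log2 fold change of 0.65 ± 0.15 (SE, n = 3 each, limma adjusted p = 0.0187), a call lost without TG replicate 1 (0.0544) or TG replicate 2 (0.0677). Its ligand gene Tnfsf15 averaged under 1 TPM in both groups. Tnfrsf4 (OX40, chr4:156013695-156016589), of activated T cells, had 2.99, 3.27 and 3.74 TPM in TG libraries, against 4.68, 4.30 and 4.73 TPM in WT libraries. The groups did not overlap and the log2 fold change was -0.37 ± 0.098 (SE, n = 3 each, limma adjusted p = 0.0337). That call was lost in limma-voom (0.172), with the replicate block (0.0603), with no filter (0.0739), and without TG replicate 1 (0.0969), TG replicate 2 (0.0932), WT replicate 1 (0.0884), WT replicate 2 (0.0555) or WT replicate 3 (0.0923).

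Cd40 (chr2:165055636-165071654), the receptor through which T cells activate macrophages and B cells, had 33.6, 29.1 and 32.3 TPM in TG libraries, against 28.6, 29.3 and 27.5 TPM in WT libraries. TG replicate 2 lay within the WT range. The log2 fold change was 0.15 with a 95% confidence interval of 0.01 to 0.28 (limma adjusted p = 0.120), and 0.20 without TG replicate 2 (0.0389). Cd40lg, its T cell ligand, had 2.14, 1.64 and 0.605 TPM in TG libraries, against 0.916, 0.126 and 0.449 TPM in WT libraries, on 70 and 23 recovered reads. These groups overlapped and Cd40lg was not called (limma adjusted p = 0.132), although limma-voom called it (0.0131), as did the fit without TG replicate 3 (0.0453). Cd40lg averaged 1 TPM or more only in TG, which the filter favours, so these 2 calls are no further support. The other co-stimulatory members tested, Cd27 (the lymphocyte receptor of CD70), Tnfsf8 (CD30 ligand), Tnfrsf18 (GITR) and Tnfsf18 (GITR ligand), averaged 1.02 to 3.72 TPM in either group and were not called. Tnfsf4 (OX40 ligand), Tnfrsf8 (CD30) and Cd70 (CD27 ligand) were under 1 TPM, with Cd70 listed at 0 in every library.

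Fasl (chr1:161780692-161788495), the ligand by which cytotoxic T and NK cells trigger Fas, was detected at a low level. It had 1.42, 1.44 and 1.21 TPM in TG libraries, against 0.844, 0.162 and 0.083 TPM in WT libraries, on 101 recovered reads in TG and 26 in WT. All TG libraries were higher, and the WT libraries were scattered. The ratio of means was 3.73, but it varied with the WT library left out. It was 11.1 without WT replicate 1, 2.92 without WT replicate 2 and 2.70 without WT replicate 3. The value of 11.1 is on 6 recovered reads in the other WT libraries. The log2 fold change was 0.83 ± 0.22 (SE, n = 3 each, limma adjusted p = 0.0322), and 2.45 in limma-voom on recovered reads. Fasl had 1 TPM or more only in TG, which the filter favours. The call was lost with a pseudocount of 0.1 (0.0513) and without TG replicate 1 (0.0865), TG replicate 2 (0.0965), TG replicate 3 (0.0726), WT replicate 2 (0.0905) or WT replicate 3 (0.0855). Markers of T, NK and innate lymphoid cells summed to 185 to 194 TPM in TG and 171 to 174 TPM in WT. Of these 3 of 15 tested rose (Cd8a, Nkg7 and Cd2) and 0 fell, with Ncr1 below 0.5 TPM in every library. Their part in the values of Fasl, Cd40lg, Tnfrsf25, Tnfrsf4 and Tnfrsf9 was not tested.

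The other death receptors and the RANK genes were not called. Fas (chr19:34290659-34327770), the death receptor, had 6.35, 8.44 and 6.53 TPM in TG libraries, against 6.89, 7.79 and 7.29 TPM in WT libraries, with a log2 fold change of -0.05 and a 95% confidence interval of -0.30 to 0.20 (limma adjusted p = 0.804). Tnfsf10 (TRAIL, chr3:27317077-27339665), which triggers apoptosis through death receptors, had 0.987, 1.48 and 1.46 TPM in TG libraries, against 0.626, 1.27 and 1.16 TPM in WT libraries (limma adjusted p = 0.466). Both genes overlapped between groups. Tnfrsf21 (DR6, a death-domain receptor), named after its values were seen, had 43.6, 40.3 and 39.0 TPM in TG libraries, against 45.2, 46.8 and 44.4 TPM in WT libraries. Its groups did not overlap but its limma adjusted p was 0.0645, and it was 0.00571 in limma-voom and 0.0265 without TG replicate 1. Tnfrsf23 (a mouse decoy receptor for TRAIL) averaged 1.90 TPM in TG and 2.69 TPM in WT, and Tnfrsf26 averaged 1.45 TPM in TG and 1.78 TPM in WT, with limma adjusted p of 0.146 and 0.393. Tnfrsf10b (a TRAIL death receptor) and Tnfrsf22 (another decoy receptor) were under 1 TPM.

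RANK (Tnfrsf11a), the receptor that drives osteoclast formation, averaged 23.6 TPM in TG and 23.2 TPM in WT (limma adjusted p = 0.814). Its ligand gene Tnfsf11 averaged 1.26 TPM in TG and 0.822 TPM in WT (limma adjusted p = 0.165), with every TG library above every WT library. Tnfsf11 passed the filter only through TG, so that separation is partly built in, and it had 109 recovered reads in TG and 69 in WT. Tnfrsf11b (osteoprotegerin, the soluble decoy of RANK ligand) was below the filter, with 0.081, 0.203 and 0.187 TPM in TG libraries, against 0.405, 0.806 and 0.369 TPM in WT libraries, on 17 and 56 recovered reads. Endothelial cells also make osteoprotegerin, and endothelial and lymphatic markers summed to 132 to 135 TPM in TG and 144 to 147 TPM in WT (8 of 10 tested fell, 1 rose). Their part in that value was not tested. Ngfr, Eda2r and Tnfrsf19, receptors known from nerve and skin development, were also below the filter.

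**Figure D3:**
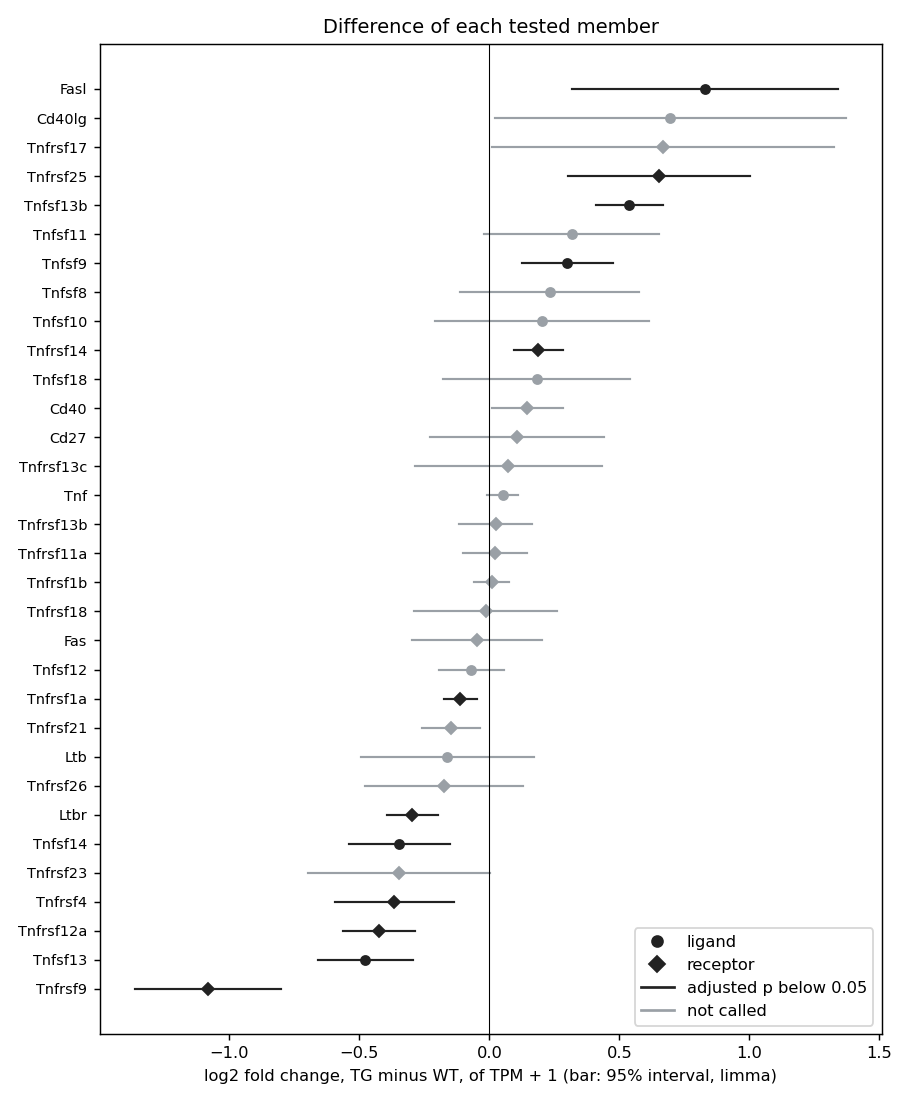
Log2 fold change (TG minus WT, on the log2(TPM + 1) scale) of each of the 32 tested members, with its 95% confidence interval. Tnfrsf9 lies farthest to the left at -1.08, and Fasl, which passed the filter only through TG, farthest to the right at 0.83.

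The authors' deposited table, whose length column is the gene's end less its start in all 24421 rows, gave a fold change for 42 of the members and called 7 higher and 9 lower, against 11.2% and 13.2% of its 20884 tested genes. Of these calls 10 were made in the same direction here. Tnfrsf4 and Tnfsf9 were called here and not in the authors' deposited table. There Cd40, Cd40lg and Tnfrsf19 were called higher and Tnfrsf21, Tnfrsf8 and Tnfrsf11b lower, and these 6 were not called here. Of these, Tnfrsf19, Tnfrsf8 and Tnfrsf11b were under 1 TPM and not tested. Tnfrsf19 averaged 0.0723 TPM in TG and 0.072 TPM in WT, on 11 recovered reads each, and these values show no rise. For Cd40 the authors' deposited table gave a log2 fold change of 0.31 with an adjusted p of 1.81e-07.

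Adaptors and signalling genes downstream of the receptors moved in both directions. Of 39 tested, 4 rose (10.3%) and 3 fell (7.69%), against 8.71% and 13.2% of all tested genes, or 17.9% against 21.9% in either direction. Tnfaip3 (A20, which restrains TNF receptor signalling to NF-kappaB) had 338, 334 and 334 TPM in TG libraries, against 271, 264 and 268 TPM in WT libraries (log2 fold change 0.32 ± 0.019, n = 3 each, limma adjusted p = 2.13e-05). Every TG library was above every WT library. Traf5, an adaptor of several receptors above, rose to an average of 13.96 TPM in TG, against 9.75 TPM in WT (log2 fold change 0.48, limma adjusted p = 0.00537). Traf1, an adaptor bound by TNFR2 and 4-1BB, fell to 10.8 TPM in TG, against 14.1 TPM in WT (log2 fold change -0.36, limma adjusted p = 0.00528). Ikbke, a kinase of the TNF and interferon pathways, fell to 48.6 TPM in TG, against 58.2 TPM in WT (log2 fold change -0.25, limma adjusted p = 0.00125).

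Of 16 tested genes of ligand processing and mRNA decay, 1 rose (6.25%) and 3 fell (18.8%), against 8.71% and 13.2% of all tested genes. Zfp36 (tristetraprolin, which destabilises Tnf mRNA) averaged 2438 TPM in TG and 2041 TPM in WT (log2 fold change 0.26 ± 0.0099, n = 3 each, limma adjusted p = 2.97e-06). The genes that fell were Litaf (a lysosomal protein named for its effect on Tnf), Timp3 (an inhibitor of the TNF-releasing protease ADAM17) and Zfp36l1 (a relative of tristetraprolin). Timp3 averaged 2.17 TPM in TG and 4.01 TPM in WT (log2 fold change -0.66, limma adjusted p = 0.00369), and Litaf averaged 251 TPM in TG and 282 TPM in WT (log2 fold change -0.17, limma adjusted p = 0.000636). Timp3 is also made by fibroblasts, for which 5 of 12 markers fell, and their part in the result was not tested.

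NF-kappaB target genes known to respond to TNF moved in both directions, with 7 higher and 7 lower of 23 tested (30.4% each), against 8.71% and 13.2% of all tested genes. The part of expression level in these shares was not tested. Irf1, a transcription factor of the interferon response, averaged 149 TPM in TG and 107 TPM in WT (log2 fold change 0.47 ± 0.028, n = 3 each, limma adjusted p = 2.90e-05). Mmp9, a gelatinase that neutrophils also carry, averaged 82.4 TPM in TG and 181 TPM in WT (log2 fold change -1.12 ± 0.028, n = 3 each, limma adjusted p = 3.19e-07). Of the neutrophil markers, 6 of 8 tested fell and 0 rose, with Mpo and Elane below 0.5 TPM in every library, and their part in the Mmp9 value was not tested. Sod2, which detoxifies superoxide in mitochondria, averaged 28.0 TPM in TG and 43.3 TPM in WT (log2 fold change -0.61, limma adjusted p = 6.72e-05). Ier3, an early response gene, averaged 485 TPM in TG and 582 TPM in WT (log2 fold change -0.26, limma adjusted p = 4.47e-05).

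**Figure D4:**
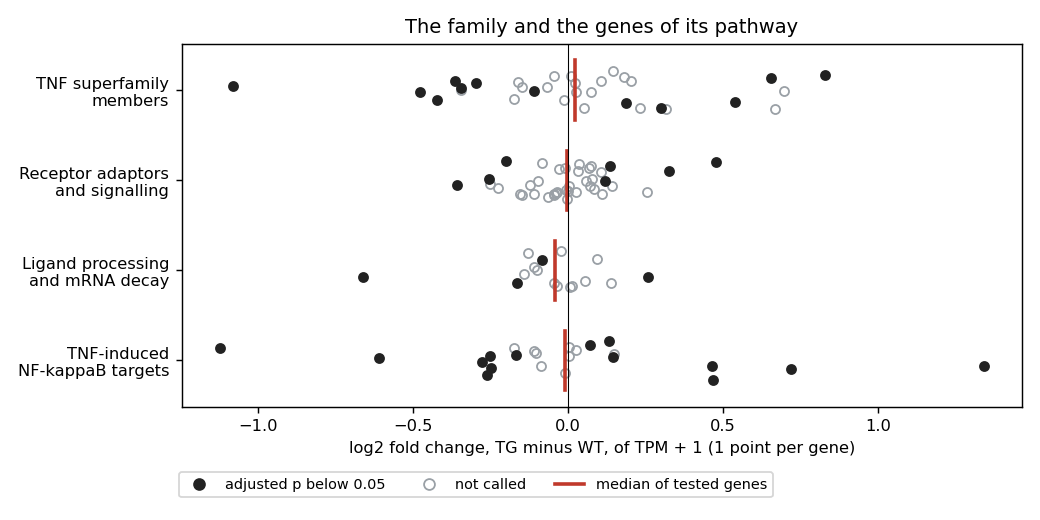
Log2 fold change (TG minus WT) of the tested TNF superfamily members (top) and of the tested genes in 3 pathway lists, 1 point per gene, filled where the limma adjusted p was below 0.05, with the median of each list as a vertical line. NF-kappaB targets spread to both sides of 0, from -1.12 for Mmp9 to 1.34 for Il6. Called genes made up 17.9% of adaptors and signalling genes and 60.9% of NF-kappaB targets, against 21.9% of all tested genes. The share was 75% of macrophage markers, 46.2% of members over 20 TPM in a group and 20% of T, NK and innate lymphoid markers. The part of expression level in these shares was not tested.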

How the data were processed

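Per the submitters' processing notes, bcl2fastq, STAR, HOMER 4.11.1 and DESeq2 were used, with genome build mm10, and their order and settings are not stated. TPM values were deposited by the authors, per the file headers, for 25124 genes, 1 RefSeq transcript row each. The authors' second deposited table gives log2 expression, log2 fold change, p-value and adjusted p-value per gene. The kit is not described as keeping strand.

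TPM was tested with limma-trend in R 4.3.3 with limma 3.58.1, after log2 transformation with a pseudocount of 1, with genotype as the only term. Genes averaging 1 TPM or more in either group entered, and p was adjusted by Benjamini-Hochberg. The fit was also run on simulated data. Their spread was set in advance and not taken from these libraries, so that run does not bear on the calls here. Fold changes on this scale understate changes of low genes. Multiplied by exon length, 99.94% to 99.98% of values up to 1000 reads per library were whole multiples of a single read's worth (tolerance 0.1 reads), which gave the recovered reads. The deposited columns sum to 543612 to 545319 TPM. A count of 0 allows up to 3 reads, covering counting error only. An exact permutation test of 3 against 3 cannot go below 0.1, so none is given.

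Every member was accounted for; values in every library are given for called members and for Tnf, Tnfrsf1a, Tnfrsf1b, Tnfsf10, Tnfsf12, Tnfsf13, Tnfsf13b, Ltbr, Cd40 and Fas, whatever their p. Of each pathway list, values are given for up to 4 genes with the lowest p, as group averages except for Tnfaip3. Other genes shown with values in every library (Tnfrsf17, Cd40lg, Tnfrsf21, Tnfrsf11b and Tnfsfm13) were chosen after values were seen. The members and lists were chosen with earlier results of these data known. Exon overlaps came from GENCODE M21. Alternatives were a pseudocount of 0.1, no filter, a filter of 5 TPM, upper-quartile scaling, limma-voom on recovered reads, the replicate number as a block, and leaving out each library; ratios of means without each library were added after seeing the data.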

Additional observations from a re-analysis of the deposited data

How the results depend on the processing

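Leaving out 1 library gave 2 to 6 members higher, against 5 with all 6 libraries, with 2 without TG replicate 1 and 3 without TG replicate 2, TG replicate 3 or WT replicate 3. It gave 4 to 6 lower, against 7, with 4 without TG replicate 2 or WT replicate 3. Over all tested genes it gave 704 to 883 higher and 1231 to 1373 lower. Adaptors and signalling genes gave 2 to 4 higher and 2 to 3 lower, and limma-voom gave 5 lower. In ligand processing and mRNA decay, upper-quartile scaling and limma-voom each called 2 higher, and limma-voom 5 lower. Limma-voom called 1637 genes higher and 2074 lower over all genes tested. Correlations of same-numbered libraries' deviations from their group means were -0.0132, -0.0430 and 0.0320 over 12633 genes, so the numbers were not taken to pair libraries; with the replicate block 6 members were higher and 6 lower, and 922 and 1457 of all tested genes.

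Among members not called, leaving out 1 library turned the sign of the log2 fold change for 7, which then lay between the following values: Tnfrsf1b -0.0051 and 0.027, Tnfrsf13b -0.022 and 0.065, Tnfrsf13c -0.061 and 0.19, Cd27 -0.049 and 0.19, Tnfrsf18 -0.10 and 0.063, Fas -0.16 and 0.020, and Tnfrsf11a -0.0095 and 0.054. Tnfrsf18 also turned with upper-quartile scaling, to 0.015. Why these values moved was not tested. Depth limits the low members, since Fasl, Cd40lg and Tnfrsf11b rest on 101, 70 and 17 recovered reads in TG and 26, 23 and 56 in WT.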
